A study of Rattus norvegicus with 8 samples.

Results

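The miR-15/16 family is a set of microRNAs (miRNAs) that begin with nearly the same bases and repress overlapping sets of messenger RNAs. They were measured here in exosomes, small vesicles released by cells, from 2 kinds of rat intervertebral disc cell. Members were taken by name, as the rat rows of the deposited table called rno-miR-15a-5p, rno-miR-15b-5p, rno-miR-16-5p, rno-miR-195-5p, rno-miR-497-5p, rno-miR-322-5p or rno-miR-503-5p once any suffix for a length variant was dropped (rno marks the rat and is left off from here on). Of these 7 names 6 had a row, 1 row each, out of 1512 rows and 1273 names in the table. No rat row was called miR-15a-5p, and the table held a row with the dog name of miR-15a, which is given apart. The groups were exosomes of nucleus pulposus progenitor cells (NPPC, 4 libraries) and exosomes of nucleus pulposus cells (NPC, 4 libraries). The nucleus pulposus is the soft centre of the disc. Both cell kinds are labelled as rat intervertebral disc, with no treatment, strain or age given. Nothing in the labels says that libraries within a group are from separate cultures or rats, so each p-value rests on a spread between libraries that may be technical. In pooled vesicle RNA, fewer vesicles of a kind and less of a miRNA in each cannot be told apart.

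A miRNA finds its targets mainly through its seed, bases 2 to 8 from the 5′ end, which pairs with sites in messenger RNAs. Through that seed the miR-15/16 family represses cyclins D and E, Cdk6, Chek1, Wee1 and the survival gene Bcl2, and so slows entry into and passage through the cell cycle. The loss of miR-15a and miR-16 in human chronic lymphocytic leukaemia is its best known role, the miR-195 cluster takes part in the withdrawal of mouse heart muscle cells from the cell cycle after birth, and miR-322 (called miR-424 in humans) with miR-503 promotes cell cycle exit during muscle differentiation. miR-16-5p is also a frequent reference for circulating miRNAs, and red blood cells hold much of it.

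The mature sequences of the 6 members found are shown because they carry what defines the family, the seed, which stands in capitals. They are RefSeq sequences of rat build GRCr8, written 5′ to 3′, and all 6 matched by name.
miR-16-5p: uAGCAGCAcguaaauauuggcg
miR-15b-5p: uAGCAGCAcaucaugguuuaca
miR-195-5p: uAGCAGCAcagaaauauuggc
miR-497-5p: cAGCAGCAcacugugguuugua
miR-322-5p: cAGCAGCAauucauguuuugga
miR-503-5p: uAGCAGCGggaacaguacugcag
Of the 6, 5 share the seed AGCAGCA, and miR-503-5p has AGCAGCG. Counted position by position from the 5′ end, miR-195-5p matched miR-16-5p at 19 of 21 bases, miR-15b-5p at 14 of 22, miR-322-5p and miR-503-5p at 12 of 22 each and miR-497-5p at 11 of 22. The deposited sequences of miR-16-5p, miR-15b-5p, miR-322-5p and miR-503-5p equalled these, that of miR-195-5p was 1 base longer and that of miR-497-5p 1 base shorter, both within the deposited hairpin. No other row held any of the 6 deposited sequences. Variant sequences with the family seed had rows of their own under names of other species, and these are not counted with the members.

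The members lie in 3 genomic clusters. Positions are those of the deposited table, whose genome build is not given in the sources used here. In it the hairpin of miR-15b lies on chromosome 2 from 165605923 to 165606020 and that of miR-16 from 165606069 to 165606166, with 48 bases between them. In GRCr8 both hairpins lie inside Smc4, which encodes a condensin subunit. There is another miR-16 hairpin elsewhere, so counts of mature miR-16 cannot be assigned to this position alone. The hairpin of miR-497 lies on chromosome 10 from 56844949 to 56845067, and that of miR-195 follows after 227 bases. The hairpin of miR-322 lies on chromosome X from 158148161 to 158148255, and that of miR-503 follows after 220 bases. All are on the plus strand of the deposited build.

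Library totals ran from 329011 to 1416940 estimated counts, and each NPPC library was deeper than each NPC library. Levels are given as CPM, the count relative to the library total, after scaling with TMM factors, which allow for a few abundant miRNAs taking a larger share of some libraries. Levels of different miRNAs also carry differences in ligation and amplification. NPC replicate 1 stood apart, with a TMM factor of 1.64 where the others lay between 0.871 and 1.01, so results that rest on it are also given without it. The 4 cartilage miRNAs (both arms of miR-140 and miR-455) summed to 8645 to 9286 CPM in NPPC and 11468 to 16159 CPM in NPC libraries. Most of that sum is miR-140-3p, with 7252 ± 377 CPM in NPPC and 11442 ± 2553 CPM in NPC libraries (SD, n = 4 each). miR-140-5p (928 CPM in NPPC, 772 CPM in NPC) and miR-455-5p (492 CPM in NPPC, 430.2 CPM in NPC) had means in the other order. That order rested on NPC replicate 1, which held 277 CPM of miR-140-5p and 227 CPM of miR-455-5p. Leaving it out moved the log2 fold change (NPPC relative to NPC, edgeR) of miR-140-5p from 0.27 to -0.0020. For miR-455-5p it went from 0.19 to -0.0070, and for miR-140-3p from -0.66 to -0.48. All 5 mesenchymal miRNAs were present in both groups. The summed CPM of other marker lists lay at 81.7 to 171 in NPPC and 18.6 to 214 in NPC libraries for leukocytes (without miR-223-3p, which had no rat-named row), at 461 to 679 in NPPC and 277 to 756 in NPC libraries for endothelium, and at 343 to 379 in NPPC and 320 to 1048 in NPC libraries for liver and serum. A row with the mouse name of miR-223-3p held 32.5 to 83.4 CPM in NPPC and 0 to 126 CPM in NPC libraries.

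**Figure D1:**
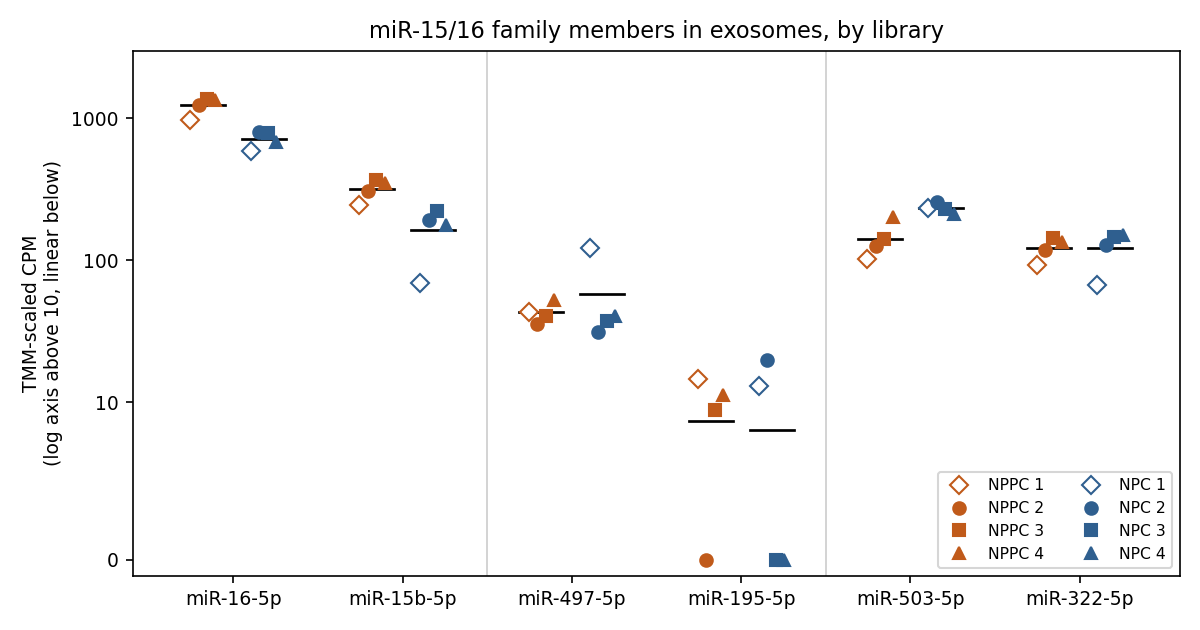
TMM-scaled CPM of the 6 members in each library, with NPPC points left of NPC points, black bars for group means and open diamonds for the libraries numbered 1. miR-16-5p and miR-15b-5p lie higher in all 4 NPPC libraries, miR-503-5p lies lower in all 4, and miR-497-5p in NPC replicate 1 stands at 123 CPM.

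miR-16-5p was the most abundant member in every library, at rank 67 of 415 rat names by mean CPM. It stood at 983, 1237, 1373 and 1353 CPM in NPPC replicates 1 to 4, against 590.2, 808, 790.0 and 686 CPM in NPC replicates 1 to 4. Each NPPC library lay above each NPC library, with means of 1236 ± 179 CPM in NPPC and 719 ± 101 CPM in NPC exosomes (SD, n = 4 each). The log2 fold change of NPPC over NPC was 0.78 ± 0.18 (SE, 95% interval 0.36 to 1.20). The two-sided quasi-likelihood test of edgeR gave an unadjusted p of 0.00253 and, over the 390 names tested, a Benjamini-Hochberg adjusted p of 0.246. It therefore did not pass the threshold of 0.05 on the adjusted p. In the DESeq2 Wald test its log2 fold change was 0.77 and its adjusted p 0.00531. That test called 6 names, 1.54% of those tested, of which 2 were higher in NPPC exosomes (0.513%).

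miR-15b-5p, whose hairpin lies beside a hairpin of miR-16, showed the same order of groups at a lower level. NPPC replicates 1 to 4 held 244, 311, 366 and 349.5 CPM, against 68.9, 192, 221 and 177 CPM in NPC replicates 1 to 4. All 4 NPPC libraries were higher, with NPC replicate 1 the lowest of the 8, and the means were 318 ± 54.2 CPM in NPPC and 165 ± 66.5 CPM in NPC exosomes (SD, n = 4 each). By edgeR the log2 fold change was 0.95 ± 0.36 (SE, 95% interval 0.13 to 1.76) with an adjusted p of 0.387 and an unadjusted p of 0.0278. Without NPC replicate 1, where edgeR called 1 of 427 names, higher in NPPC exosomes (0.234%), it was 0.70 (adjusted p = 0.114) and that of miR-16-5p 0.71 (adjusted p = 0.0737).

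miR-503-5p, the member with the divergent seed, lay the other way. It stood at 102, 127, 140.3 and 202 CPM in NPPC replicates 1 to 4, against 235, 257, 231 and 212 CPM in NPC replicates 1 to 4. Every NPPC library was below every NPC library, and the nearest pair was NPPC replicate 4 with 202 CPM and NPC replicate 4 with 212 CPM. The means were 143 ± 42.6 CPM in NPPC and 234 ± 18.2 CPM in NPC exosomes (SD, n = 4 each), and the log2 fold change was -0.71 ± 0.25 (SE, 95% interval -1.29 to -0.13). edgeR's unadjusted p was 0.0214 and its adjusted p 0.380.

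miR-322-5p, the cluster partner of miR-503-5p, had the same mean in both groups. NPPC replicates 1 to 4 held 93.1, 119, 144 and 136 CPM, against 67.0, 129, 145 and 150.4 CPM in NPC replicates 1 to 4. The groups overlapped throughout, at 123 ± 22.6 CPM in NPPC and 123 ± 38.3 CPM in NPC exosomes (SD, n = 4 each). edgeR's log2 fold change was 0.00057 with a 95% interval of -0.70 to 0.70 and an adjusted p of 1.00. The interval thus holds differences of up to 0.70 in either direction. Without NPC replicate 1, which held the lowest level, edgeR's log2 fold change was -0.19 (adjusted p = 0.586). With all libraries and a correction for the base composition of each miRNA it was -0.67 (unadjusted p = 0.0433, adjusted p = 0.563).

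miR-497-5p and miR-195-5p were the scarcest members. miR-497-5p stood at 43.5, 35.6, 40.4 and 52.2 CPM in NPPC replicates 1 to 4, against 123, 31.4, 37.1 and 40.5 CPM in NPC replicates 1 to 4. A single NPC library, replicate 1, lay above all NPPC libraries, and the other 3 lay among or below them. edgeR's log2 fold change was -0.43 ± 0.49 (SE, adjusted p = 0.679) with all libraries and 0.25 ± 0.29 (SE, adjusted p = 0.635) without NPC replicate 1, so 1 library set its sign. miR-195-5p had estimated counts of 12, 0, 12 and 13 in NPPC replicates 1 to 4, against 7, 12, 0 and 0 in NPC replicates 1 to 4. It did not pass the filter on low counts, and with no filter its log2 fold change was 0.20 (adjusted p = 0.956). The table holds few low values (402 of 5804 values above 0 are under 5), so a 0 in the table may still hide a few reads.

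Of the 7 names, 5 were thus abundant enough to be tested, and 0 passed edgeR's test over all names, where 0.256% of names passed (1 of 390, miR-146a-5p). At an unadjusted p under 0.05, 2 members were higher in NPPC exosomes, where 4.10% of all names were, and 1 was lower, where 6.41% were. The groups did not overlap in 2 members that were higher, against 6.15% of all names, and in 1 that was lower, against 4.62%. The median log2 fold change of the 5 was 0.00057, beside -0.038 over all names tested and 0.19 over the 278 rat names tested. The family thus held members on both sides of 0.

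With both libraries numbered 1 left out, 42 of 423 names passed edgeR's test with adjusted p under 0.05, which is 9.93% of those tested (20 higher in NPPC exosomes, 4.73%), and 2 members were among them. There both miR-16-5p (log2 fold change 0.83 ± 0.13, SE, adjusted p = 0.0172) and miR-15b-5p (0.83 ± 0.16, SE, adjusted p = 0.0276) rose in NPPC exosomes. miR-503-5p had -0.54 (adjusted p = 0.148), miR-322-5p -0.056 (adjusted p = 0.863) and miR-497-5p 0.27 (adjusted p = 0.652). Leaving out either of those libraries alone left miR-16-5p with an adjusted p of 0.0737 without NPC replicate 1 and 0.310 without NPPC replicate 1.

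**Figure D2:**
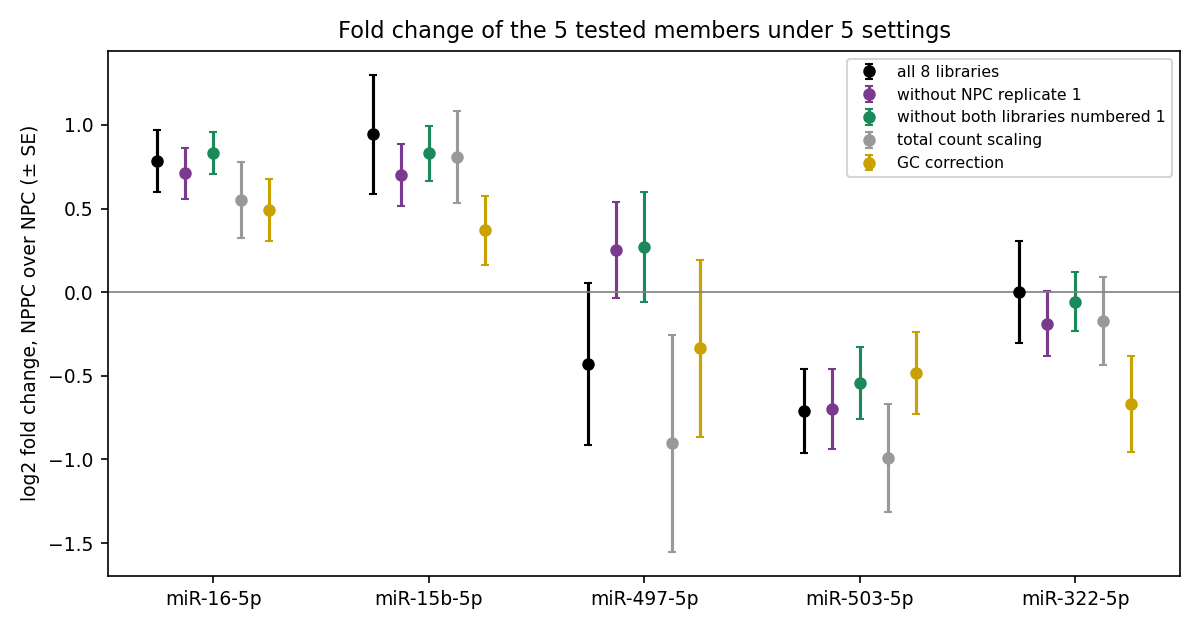
log2 fold change of NPPC over NPC with its SE for the 5 tested members, under the edgeR test on all 8 libraries and 4 other settings. miR-16-5p (0.49 to 0.83) and miR-15b-5p (0.37 to 0.95) lie above 0 and miR-503-5p (-0.99 to -0.48) below it in all 5 settings shown, while miR-497-5p changes sign without NPC replicate 1.

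Summed by deposited position, the miR-15b and miR-16 cluster was higher in NPPC exosomes. The miR-322 and miR-503 cluster had a higher mean in NPC exosomes, and the miR-497 and miR-195 cluster had no settled direction. Because miR-16 has another hairpin elsewhere, its counts in these sums cannot be assigned to the hairpin beside miR-15b alone. The miR-15b and miR-16 cluster summed to 1227, 1548, 1739 and 1703 CPM in NPPC replicates 1 to 4, against 659, 999.7, 1011 and 864 CPM in NPC replicates 1 to 4, without overlap. Most of this sum is miR-16-5p, so it largely repeats the result of that member. The difference of mean log2 values, NPPC minus NPC, was 0.82, and 0.69 without NPC replicate 1. The miR-322 and miR-503 cluster summed to 194.6, 245, 285 and 337 CPM in NPPC, against 302, 386, 376 and 362 CPM in NPC replicates 1 to 4. NPPC replicate 4 exceeded NPC replicate 1 there, and the difference of mean log2 values was -0.45. Fitted again with a library left out it ran from -0.53 to -0.24, the smallest without NPPC replicate 1. The miR-497 and miR-195 cluster summed to 51.8 ± 12.1 CPM in NPPC and 66.2 ± 46.9 CPM in NPC exosomes (SD, n = 4 each), with a difference of -0.17 that became 0.25 without NPC replicate 1. No p is given for these sums, because their members were chosen with earlier results known.

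The make-up of the family within a library does not depend on how libraries are scaled to each other. It can still carry a library's trend with base composition, and shares corrected for that trend were not computed. miR-16-5p held 66.2% ± 1.38 of the family's counts in NPPC and 54.9% ± 1.11 in NPC exosomes (SD, n = 4 each), with ranges of 64.3% to 67.7% in NPPC and 53.8% to 56.2% in NPC libraries. The ranges did not overlap, and NPC replicate 1 held 53.8%. miR-503-5p held 7.54% ± 1.37 in NPPC and 18.1% ± 2.33 in NPC exosomes (SD, n = 4 each), with ranges of 6.77% to 9.59% in NPPC and 16.2% to 21.4% in NPC libraries. The miR-322 and miR-503 cluster together held 14.1% ± 1.33 in NPPC and 27.3% ± 0.956 in NPC exosomes (SD, n = 4 each). Shares of a whole move against each other, so these are not separate differences. miR-497-5p held 11.2% of the family's counts in NPC replicate 1 (95% Wilson interval 8.91% to 14.0%) and 2.19% to 3.20% in the other NPC libraries, beside 1.95% to 2.94% in NPPC libraries. Such intervals cover counting error only.

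**Figure D3:**
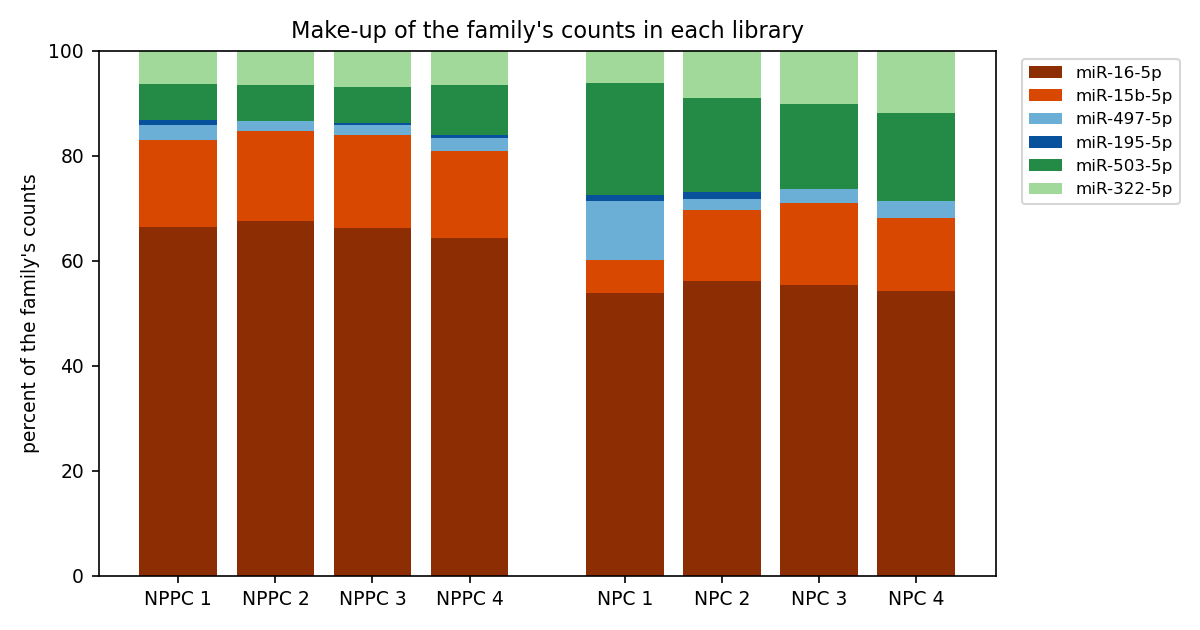
Percent of the family's counts held by each member, as 1 stacked bar per library that sums to 100, with the 4 NPPC libraries left of the 4 NPC libraries. miR-16-5p holds 64.3% to 67.7% of each NPPC bar and 53.8% to 56.2% of each NPC bar, and miR-503-5p takes a larger part of each NPC bar.

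Neighbouring members were compared by their ratio in each library, without dividing the counts of miR-16-5p between its hairpins. There were 4.02, 3.98, 3.75 and 3.87 counts of miR-16-5p per count of miR-15b-5p in NPPC replicates 1 to 4, against 8.57, 4.21, 3.57 and 3.87 in NPC replicates 1 to 4. Apart from NPC replicate 1 the 7 libraries lay close together, and the log2 ratio differed by -0.27 between NPPC and NPC with all libraries (two-sided exact permutation p = 0.600, Benjamini-Hochberg adjusted p = 0.600 over 2 ratios) and by 0.012 without NPC replicate 1. For miR-503-5p per count of miR-322-5p the values were 1.09, 1.07, 0.973 and 1.49 in NPPC replicates 1 to 4, against 3.50, 1.99, 1.59 and 1.41 in NPC replicates 1 to 4. NPPC replicate 4 lay above NPC replicate 4, and the log2 ratio differed by -0.80 (two-sided exact permutation p = 0.0571, adjusted p = 0.114, where the smallest p that 70 arrangements allow is 0.0286). It was -0.53 without NPC replicate 1 (exact permutation p = 0.114). With the correction for base composition that difference was 0.15 (exact permutation p = 0.543), in the opposite direction. The ratio of miR-497-5p to miR-195-5p was not tested, because miR-195-5p was listed at 0 in 3 libraries.

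The opposite arms of the hairpins were compared with the members. For miR-322 the 3p arm was the more abundant product in each of the 8 libraries, and the hairpin of the deposited table shows where both arms lie, in capitals, the 5p arm first.
miR-322 hairpin: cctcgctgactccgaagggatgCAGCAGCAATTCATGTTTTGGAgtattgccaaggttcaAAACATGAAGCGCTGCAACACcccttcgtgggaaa
There were 8.92, 8.78, 5.74 and 6.94 counts of miR-322-3p per count of miR-322-5p in NPPC replicates 1 to 4, against 21.5, 8.27, 6.83 and 7.10 in NPC replicates 1 to 4. With 910.2 ± 103 CPM in NPPC and 1142 ± 204 CPM in NPC exosomes (SD, n = 4 each), miR-322-3p exceeded miR-15b-5p in every library and had a log2 fold change of -0.33 ± 0.18 (SE, adjusted p = 0.504), or -0.18 without NPC replicate 1 (adjusted p = 0.403). Its seed is AACAUGA, so it does not belong to the family by sequence. The other hairpins favoured the 5p arm. miR-15b-3p reached 0.596 ± 0.120 counts per count of miR-15b-5p in NPPC and 0.606 ± 0.285 in NPC libraries (SD, n = 4 each). It had a log2 fold change of 0.78 ± 0.53 (SE, adjusted p = 0.564), or 0.45 without NPC replicate 1 (adjusted p = 0.300). miR-503-3p reached 0.0595 to 0.297 counts per count of miR-503-5p in NPPC and 0.0438 to 0.143 in NPC libraries. miR-16-3p was listed in NPPC replicate 3 alone, with 11 counts, and the 3p arms of miR-15a, miR-195 and miR-497 had no rat row.

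In GRCr8, 4 further miRNA genes lie within 10000 bases of miR-503 besides miR-322, namely miR-351, miR-542, miR-450a and miR-450b. They were looked at because of that position, after the table had been seen. By the mean of all 8 libraries miR-351-5p was the most abundant of their products, while in NPPC libraries the mean of miR-450a-5p was higher. miR-351-5p stood at 1746, 1538, 1706 and 1525 CPM in NPPC replicates 1 to 4, against 3845, 2325, 1882 and 2491 CPM in NPC replicates 1 to 4. Like miR-503-5p it lay below all NPC libraries in each NPPC library, but it did not pass edgeR's test (log2 fold change -0.69 ± 0.23, SE, adjusted p = 0.354, and -0.44 with adjusted p = 0.128 without NPC replicate 1). miR-450a-5p had 1702 ± 56.0 CPM in NPPC and 1460 ± 819 CPM in NPC exosomes (SD, n = 4 each), and miR-542-3p had 338 ± 56.5 CPM in NPPC and 273 ± 216 CPM in NPC exosomes, with log2 fold changes of 0.22 (adjusted p = 0.857) and 0.30 (adjusted p = 0.866). NPC replicate 1 held 242 CPM of miR-450a-5p and 9.31 CPM of miR-542-3p, where the other NPC libraries held 1755 to 2017 CPM of miR-450a-5p and 266 to 538 CPM of miR-542-3p. Without that library both log2 fold changes turned, to -0.12 (adjusted p = 0.470) for miR-450a-5p and -0.088 (adjusted p = 0.872) for miR-542-3p.

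The deviation of NPC replicate 1 moved with base composition within the family and its neighbourhood. Against the mean of NPC replicates 2 to 4, NPC replicate 1 stood at -1.51 (log2) for miR-15b-5p and -1.08 for miR-322-5p, both with 40.9% G and C, and at -0.37 for miR-16-5p with 45.5%. miR-503-5p with 56.5% was at 0.0080 and miR-497-5p with 52.4% at 1.76. Among the arms and neighbours the values ran from -5.28 for miR-542-3p with 31.8% to 1.49 for miR-351-3p with 66.7%. edgeR was also fitted with a correction of each library for its trend with GC percent. The log2 fold changes were then 0.49 for miR-16-5p (unadjusted p = 0.0267, adjusted p = 0.549) and 0.37 for miR-15b-5p (unadjusted p = 0.108, adjusted p = 0.680). They were -0.48 for miR-503-5p (unadjusted p = 0.0772, adjusted p = 0.626) and -0.33 for miR-497-5p (unadjusted p = 0.543, adjusted p = 0.886). In that fit 31 of 390 names had an unadjusted p under 0.05. In NPPC replicate 1 the members also lay mostly below the mean of the other NPPC libraries, at -0.43 (log2) for miR-16-5p, -0.49 for miR-15b-5p, -0.51 for miR-322-5p and -0.62 for miR-503-5p, with miR-497-5p at 0.026.

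**Figure D4:**
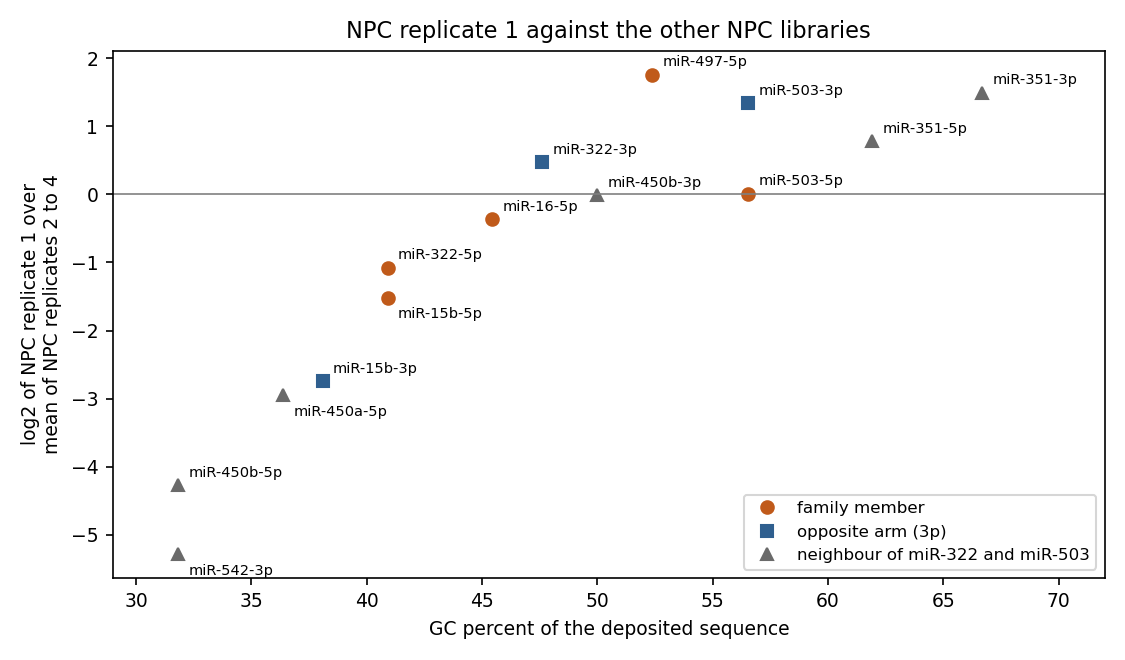
log2 of the level in NPC replicate 1 over the mean of NPC replicates 2 to 4, against the GC percent of the deposited sequence, for members (circles), their opposite arms (squares) and the neighbours of miR-322 and miR-503 (triangles). Sequences with low GC percent lie below 0, down to -5.28 for miR-542-3p, and those above 50% lie at 0.0080 or higher.

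Because red cells are rich in miR-16, their miRNAs were set beside it. miR-451-5p, the defining red cell miRNA, ranged from 95.6 to 837 CPM in NPPC and from 41.0 to 220.1 CPM in NPC libraries, and the 4 listed red cell miRNAs summed to 198 to 1416 CPM in NPPC and 373 to 583 CPM in NPC libraries. With all libraries their log2 fold changes were 1.29 ± 0.81 (SE) for miR-451-5p, 0.098 for miR-144-5p, -0.088 for miR-144-3p and -0.54 for miR-486. edgeR's adjusted p ran from 0.564 to 0.964. Without NPC replicate 1, which held 0 CPM of both miR-144 arms, they were 1.01, -0.30, -0.49 and -0.31 in the same order. Only miR-451-5p was then positive. The highest level of miR-451-5p was that of NPPC replicate 2, and without that library the log2 fold change of miR-16-5p was 0.80 (edgeR, adjusted p = 0.568). Leaving out 1 library does not remove red cell RNA from the others, which all held miR-451-5p. The part of red cell RNA in the level of miR-16-5p was not tested.

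miR-103-3p and miR-107-3p carry the family's GCAGC motif shifted by 1 base and are often grouped with it. miR-103-3p had 6070 ± 549 CPM in NPPC and 5807 ± 868 CPM in NPC exosomes, and miR-107-3p 808 ± 49.5 CPM in NPPC and 674 ± 113 CPM in NPC exosomes (SD, n = 4 each). Both hold fractional counts, so the division of reads between these near-identical miRNAs is uncertain. Their log2 fold changes were 0.064 and 0.26, with adjusted p of 0.857 and 0.564 by edgeR.

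Other miRNAs known to act on the cell cycle were taken from 2 lists. Of 20 repressors outside the family 15 were tested and 0 passed, with 13 positive and a median log2 fold change of 0.61. Many of the 15 are members of the single let-7 family. The counts and medians of this list are therefore not those of 15 separate miRNAs. Over the 278 rat names tested, 167 were positive and the median was 0.19. NPC replicate 1 held low levels of many repressors, with 4636 CPM of let-7c-5p where the other NPC libraries held 21487 to 27122 CPM, and 294 CPM of let-7f-5p where they held 7713 to 17690 CPM. Without NPC replicate 1 the median of the repressors was 0.30 with 14 of 15 positive, beside 0.084 over 290 rat names with 167 positive. At an unadjusted p under 0.05 stood miR-34a-5p, which p53 induces, with 335 ± 22.5 CPM in NPPC and 210.3 ± 52.4 CPM in NPC exosomes (SD, n = 4 each) and a log2 fold change of 0.67 (0.65 without NPC replicate 1). Its relative miR-34c-5p, with means of 2353 CPM in NPPC and 2842 CPM in NPC exosomes, had -0.27 (-0.26 without NPC replicate 1). The most abundant, let-7c-5p and miR-26a-5p, had 0.61 and 0.45 with all libraries (adjusted p = 0.596 and 0.654), and 0.29 and 0.13 without NPC replicate 1. Of 13 promoters of proliferation 12 were tested and 0 passed, with 10 positive and a median of 0.58, which became 0.45 without NPC replicate 1, again with 10 positive. At an unadjusted p under 0.05, where 4.10% of all names were higher and 16 of the 278 rat names, stood miR-17-5p (0.65), miR-93-5p (0.47), miR-106b-5p (0.63) and miR-221-3p (0.31). The most abundant, miR-21-5p, had 0.53 (adjusted p = 0.658), but 0.18 (adjusted p = 0.466) without NPC replicate 1, which held 34012 CPM where the other NPC libraries held 247800 to 350862 CPM. Without that library 5 of 15 repressors and 7 of 12 promoters were higher at an unadjusted p under 0.05, where 12.4% of rat names were, and 0 of either list passed the adjusted threshold in edgeR.

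By the likeness of their levels over the 8 libraries, the rat miRNAs closest to miR-16-5p were miR-146a-5p (Pearson r = 0.962 of log2 CPM), miR-17-5p (0.957) and miR-221-3p (0.943), out of 164 with at least 100 CPM. Closest to miR-497-5p were miR-191a-5p (0.913), miR-125b-1-3p (0.906) and miR-143-5p (0.846), and closest to miR-503-5p were miR-210-3p (0.758), miR-224-5p (0.721) and miR-199a-5p (0.687). These values describe 8 libraries in 2 groups that share their depth and base composition trends, and carry no test.

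The dog-named row of miR-15a had the family seed and no genome position in the table. It held 131, 90.0, 108 and 140.0 CPM in NPPC replicates 1 to 4, against 35.4, 109, 87.8 and 77.1 CPM in NPC replicates 1 to 4. NPC replicate 2 lay within the NPPC range, and NPC replicate 1 was the lowest of the 8 libraries. With all libraries the log2 fold change of this row was 0.59 ± 0.36 (SE, edgeR, adjusted p = 0.533). Its value without NPC replicate 1 is not given here. By mean CPM over all libraries the members ranked as miR-16-5p, miR-15b-5p, miR-503-5p, miR-322-5p, miR-497-5p and miR-195-5p. In NPPC libraries the ranges of miR-503-5p and miR-322-5p overlapped. In NPC libraries miR-503-5p had a higher mean than miR-15b-5p and was the higher of the pair within each library. Their ranges over the NPC libraries overlapped between 212 and 221 CPM.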

How the data were processed

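Small RNA libraries (TruSeq kit, Illumina) were made from exosome RNA, per the labels' protocols, with CASAVA 1.8 per the submitters' processing notes. The genome build, the aligner and any miRBase release were not given in the sources used here. Deposited values are the authors' estimated counts for each row, of which 82.3% of 5804 values above 0 were whole within 1e-09, and the authors' scaled signal columns, equal to the count times 1 factor per library. Rows were summed per mature name, without suffixes, and rounded. edgeR 4.0.16 (R 4.3.3) with TMM factors, filterByExpr and the two-sided quasi-likelihood test was fitted to all 8 libraries on group alone, with Benjamini-Hochberg adjustment over 390 names (278 rat, 76 of other species, 36 predicted). The SE is the log2 fold change divided by the root of F. log2 CPM used a prior count of 2. The precision of low rows is limited by the totals of 329011 to 1416940 counts. Ratios were compared by exact permutation over 70 arrangements (Python 3.11.15, scipy 1.17.1). The edgeR test was tried on simulated counts, and the permutation test on small sets of values with known answers.

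The replicate numbers of the titles were left out of the main fit. They entered only an alternative, the replicate block, which pairs libraries by number. Deviations of same-numbered libraries from their group means correlated at 0.116 to 0.565 over the 4 pairs. Differently numbered pairs correlated at -0.483 to 0.355, and 4 of 8 libraries correlated best with their own number. No label states such a pairing. Alternatives used DESeq2 1.42.0 and limma 3.58.1 (voom), other scalings and filters, and libraries left out. For the GC correction, a loess fit on GC percent (span 0.75) was taken out of each library. Members, lists, tests and alternatives were chosen with earlier results of these data known. The naming rule took all members, their opposite arms and offset-seed relatives, list members with unadjusted p under 0.05 or highest abundance, and the 3 likest miRNAs per cluster. The neighbours on chromosome X were added after values had been seen, as were the list values without NPC replicate 1.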

Additional observations from a re-analysis of the deposited data

Results flagged for a closer look

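A library stood far from the rest of its group in 4 of 32 sets of 4 levels, and chance alone does this in about 1 in 20. For 1 of the 4 the rest were listed at 0, so any value above 0 would have stood apart, and 3 are left to set beside that rate. NPC replicate 1 held miR-497-5p at 122.9 CPM (other NPC libraries 31.4 to 40.5 CPM), the miR-497 and miR-195 cluster at 135.9 CPM (others 37.1 to 51.3 CPM) and miR-322-3p at 1443 CPM (others 991 to 1068 CPM). The first of these is most of the second. NPPC replicate 3 held miR-16-3p at 8.719 CPM, where the other NPPC libraries were listed at 0.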

How the results depend on the processing

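Over 24 alternatives to the edgeR test, miR-16-5p kept a positive log2 fold change (0.49 to 0.95, adjusted p 0.00531 to 0.745, unadjusted p under 0.05 in 24), miR-15b-5p did so too (0.37 to 1.19, unadjusted p under 0.05 in 20) and miR-503-5p stayed negative (-0.99 to -0.36, in 16). The names called numbered 1 with all libraries, 0 with a test per row (60 at an unadjusted p under 0.05), 0 with the replicate block (48), 8 with no filter, 6 with DESeq2, 42 without both libraries numbered 1 and 0 to 1 with a library left out (23 to 86 at an unadjusted p under 0.05). Without both libraries numbered 1 miR-16-5p and miR-15b-5p passed at 0.83 each, and with DESeq2 miR-16-5p at 0.77. With the replicate block miR-16-5p had 0.78 (adjusted p = 0.274), and no member's call changed. The median of all names was -0.29 with total count scaling against -0.038 with TMM factors. miR-322-5p, at 0.00057, turned to -0.092 with rat names only, -0.17 with total count scaling, -0.67 with the GC correction and -0.056 without both libraries numbered 1, and with a library left out it ran from -0.19 to 0.18. Without NPC replicate 1 it was -0.41 with the GC correction and -0.23 with total count scaling. miR-497-5p turned to 0.27 without both libraries numbered 1, and without NPC replicate 1 to 0.45 with the GC correction and 0.22 with total count scaling, and with a library left out it ran from -0.63 to 0.25. The miR-15b and miR-16 sum moved to 0.48 with the GC correction and 0.55 with it and without NPC replicate 1. The miR-497 and miR-195 sum turned to 0.22 without both libraries numbered 1, to 0.39 and 0.23 with the GC correction and total count scaling without NPC replicate 1, and ran from -0.31 to 0.26 with a library left out (0.026 without NPPC replicate 2). The log2 ratio of miR-16-5p to miR-15b-5p turned to 0.13 with the GC correction and ran from -0.41 to 0.012 with a library left out, and that of miR-503-5p to miR-322-5p turned to 0.15 with the GC correction and ran from -0.97 to -0.53 with a library left out. The miR-322 and miR-503 sum ran from -0.53 to -0.24. With a library left out, 3 against 4 libraries cannot give an exact permutation p under 0.0571. The cause of these changes was not tested. The fits without NPC replicate 1 that also changed the scaling were chosen after the data were seen.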

Other observations

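Of the 1512 rows, 11 had a family seed at bases 2 to 8, 6 of them the members. Beside the dog-named row of miR-15a, the others carried names of mouse, guinea pig and armadillo miRNAs and stayed low, at 0 to 26 counts in each library for the mouse-named variant of miR-16-5p, at 0 to 9 counts for the guinea pig name miR-424-5p over its 2 rows, and at 7 counts in NPPC replicate 3 alone for the armadillo name of miR-503-5p. The mouse-named row of miR-16-1-3p, the opposite arm of the second miR-16 hairpin, held 8 and 7 counts in NPPC replicates 3 and 4, 6 counts in NPC replicate 3 and 0 in the other libraries.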
